A study of Canis lupus familiaris with 4 samples.

Results

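Integrins and laminins were examined on 4 two-colour Agilent arrays of dog (Canis lupus familiaris) RNA. A probe was taken when its gene symbol in the scanner files named an integrin alpha or beta chain, or a laminin alpha, beta or gamma chain. This gave 63 of the 43603 probes on the array, for 33 genes, of which 22 were integrin chains and 11 were laminin chains. Of these, 46 probes for 25 genes were bright enough to be tested (16 integrin and 9 laminin genes), and 17 probes were not. No probe carried the symbols ITGB4, ITGA9, ITGA10, ITGB7 or LAMA1, so the ITGB4 partner of the ITGA6 chain was not analysed here.

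Integrins are cell-surface receptors made of an alpha and a beta chain. They bind the matrix outside the cell and, through talin, kindlin and their partners, the actin skeleton inside it. Laminins are cross-shaped secreted proteins of an alpha, a beta and a gamma chain that form the basement membrane under epithelia. In the mammary gland, laminin and its integrin receptors anchor the epithelium and help to set its polarity.

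The cells came from P114 and CMT-U27, established canine mammary cancer lines, and had been sorted for surface Sca1, EpCAM and CD44 as stem-like cells, a small minority of each line. They were kept with tumour-associated macrophages (co-culture) or without them (single culture) and labelled as day 3, as total RNA. Each of the 2 lines had 2 arrays, and every array held the co-culture of a line in one dye and its single culture in the other. By the label of each channel, Cy3 marked the co-culture on the first P114 array and the second CMT-U27 array, and Cy5 marked it on the other pair. The labels do not say whether replicates came from separate cultures, so p-values measure a spread between these arrays that may be technical. Both fits also estimated a dye effect for each probe. In the co-culture fit, disagreement between a line's arrays did not count as spread where a dye effect common to both lines took it up. Whether cells were freed of macrophages after co-culture is not given in the sources used here. Each line was the only source of its group, so line stands for tumour of origin, culture history and all else that differs between them.

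Probes well above background made up 91.8% (single culture) and 89.4% (co-culture) of all probes on P114 replicate 1, and between 57.9% and 65.7% in every channel of the remaining 3 arrays. Saturation was found at 0 spots. The co-culture ratios of the tested probes correlated at -0.15 (Pearson, over 28694 probes) between the P114 arrays and at 0.05 between the CMT-U27 arrays. All 4 arrays lay on 1 slide, but the P114 arrays were scanned in 1 session and the CMT-U27 arrays in another, so line and scan session cannot be told apart.

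The array's probes are 60 bases long, and those of ITGB1, ITGA5 and ITGA6, integrin chains with large differences between the lines, are shown from the scanner files with the files' CanFam3.1 positions. The dimmer ITGA1 and ITGB3 probes are shown for the tail motifs they read. Capitals in ITGB1, ITGA1 and ITGB3 mark the codons of short tail motifs found by translation of a stop-free frame. These are HDR, the membrane-proximal start of the beta tail, GFF, its counterpart in alpha chains, and NPxY, a docking site of talin in beta tails. Capitals in the ITGA6 probes mark the 52 bases that both hold.
ITGB1 (chr2:3750460-3750519, plus strand): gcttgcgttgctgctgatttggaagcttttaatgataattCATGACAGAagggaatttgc
ITGB1, other probe (chr2:3748256-3748315, plus strand): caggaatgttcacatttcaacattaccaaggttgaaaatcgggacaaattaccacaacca
ITGA5 (chr27:924486-924545, plus strand): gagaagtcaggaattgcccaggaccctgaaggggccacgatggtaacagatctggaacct
ITGA6 (chr36:16854513-16854572, plus strand): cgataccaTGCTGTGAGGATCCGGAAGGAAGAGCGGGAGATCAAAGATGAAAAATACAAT
ITGA6, other probe (chr36:16854521-16854580, plus strand): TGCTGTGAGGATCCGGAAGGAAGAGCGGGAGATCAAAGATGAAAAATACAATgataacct
ITGA1, dimmer probe (chr4:62299593-62299652, minus strand): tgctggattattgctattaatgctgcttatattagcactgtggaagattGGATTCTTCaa
ITGB3, dimmer probe (chr9:9182603-9184561, minus strand, with a gap in the genomic match): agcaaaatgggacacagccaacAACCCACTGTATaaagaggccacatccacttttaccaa

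GFF stood in 4 of 26 integrin alpha probes (ITGA1, ITGA11, ITGA2B and ITGA8), HDR in 2 of 12 beta probes (ITGB1 and ITGB6) and NPxY, or its form ending in phenylalanine, in 2 of 12 (ITGB2 and ITGB3). Over all 43603 probes the shares holding these motifs were 0.394%, 0.094% and 0.454%. The ITGA6 pair reads nearly the same bases of the transcript and is not independent, and 2 of the 4 ITGB5 probes share 39 bases.

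The first comparison set the lines against each other in single culture, as CMT-U27 minus P114. The fibronectin receptor chains ITGA5 and ITGB1 stood far lower in CMT-U27, as did the laminin receptor chain ITGA6, the vitronectin receptor chain ITGB5 and the laminin chains LAMB1 and LAMC1. Of the 25 genes at their brightest probe, 6 were lower in CMT-U27, 0 were higher and 19 did not pass (limma separate-channel fit, Benjamini-Hochberg adjusted p under 0.05 over 28694 probes). Over probes, 11 of 46 were lower and 0 higher, where 6.97% of all tested probes were lower, 8.23% were higher and 15.2% passed in either direction. The median log2 difference was -0.42 over the 46 member probes and 0.03 over all tested probes.

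**Figure D1:**
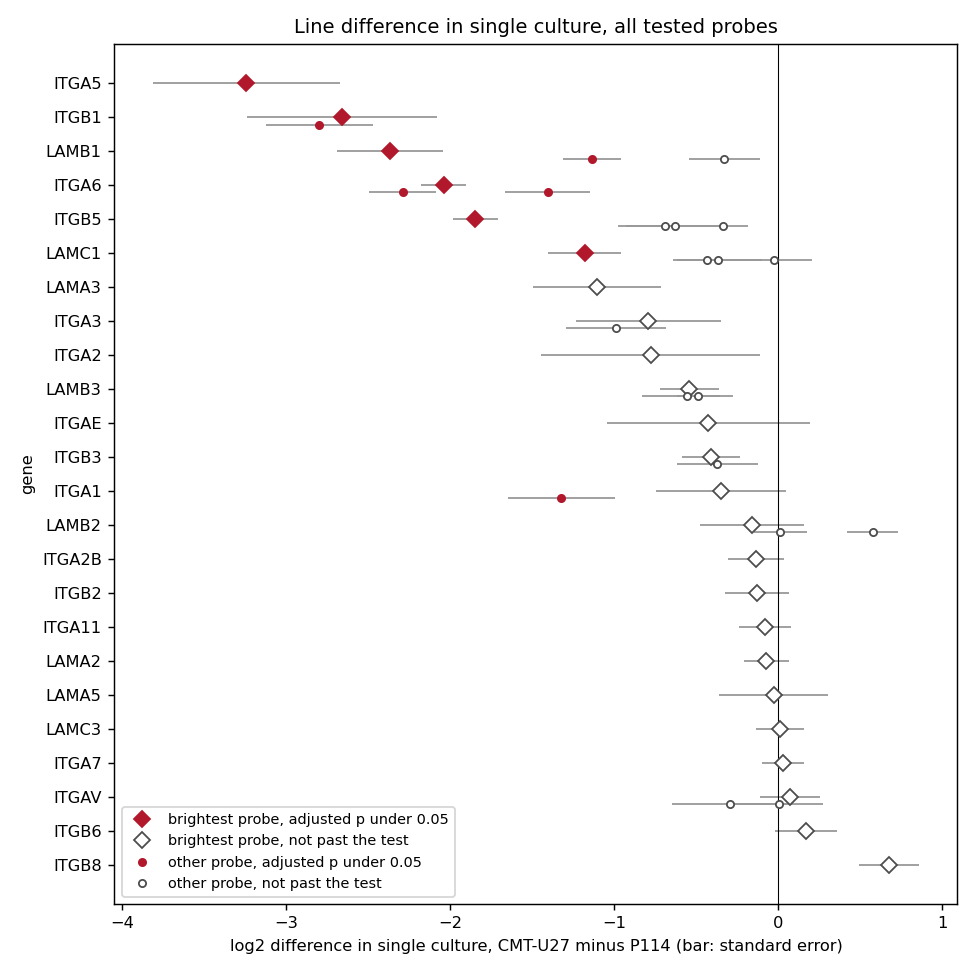
Log2 difference between the lines in single culture (CMT-U27 minus P114, horizontal axis) for every tested probe of the genes reported (vertical axis), with standard errors as bars. Diamonds are the brightest probe of a gene, circles its other probes, and filled symbols passed the limma test. All 11 filled symbols lie below 0, from -3.24 for ITGA5 to -1.13 for a dimmer LAMB1 probe.

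ITGB1 encodes the beta chain shared by most matrix-binding integrins. Its normalised log2 signal (log2 intensity after loess and Aquantile normalisation) in single culture was 14.63 and 14.18 on the P114 arrays and 12.01 and 11.49 on the CMT-U27 arrays. Both P114 arrays were thus above both CMT-U27 arrays. The difference was -2.66 ± 0.58 (SE, n = 2 arrays a line), or 6.31-fold lower in CMT-U27 (limma adjusted p = 0.0347). Its other probe, which reads an upstream stretch, gave -2.80 ± 0.33 (limma adjusted p = 0.00488).

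ITGA5, the alpha chain that joins ITGB1 in the classical fibronectin receptor, had signals of 10.23 and 10.50 in P114 and 7.09 and 7.16 in CMT-U27. Its difference was -3.24 ± 0.57, or 9.46-fold lower (limma adjusted p = 0.0178). In CMT-U27 single culture it was well above background on 1 of 2 arrays, so its level there lay close to the lower end of the scale. The size of this difference depended on the treatment of background, and it was -4.17 with no background correction and -5.84 with the scanner software's processed signals.

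ITGA6, the alpha chain of laminin receptors and a marker often used to sort mammary stem and basal cells, had signals of 12.85 and 13.10 in P114 and 10.97 and 10.90 in CMT-U27. The difference of -2.04 ± 0.14 was 4.11-fold (limma adjusted p = 0.000912). The overlapping probe gave -2.29, and a probe in an upstream stretch gave -1.41, and both passed. Of the other laminin-binding chains, ITGA3 stood at -0.79 (mean signals of 13.24 in P114 and 12.45 in CMT-U27, limma adjusted p = 0.308) and ITGA7, the muscle laminin receptor chain, at 0.03. The brightest ITGA3 probe did not overlap between the lines, but the difference did not pass.

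LAMB1 and LAMC1 are the beta and gamma chains of the most widespread laminins. LAMB1 had signals of 14.05 and 13.78 in P114 against 11.63 and 11.46 in CMT-U27, a difference of -2.37 ± 0.32, or 5.16-fold (limma adjusted p = 0.00802). LAMC1 had 10.12 and 10.17 against 8.99 and 8.94, a difference of -1.18 ± 0.22, or 2.26-fold (limma adjusted p = 0.0218). The groups did not overlap for either gene. The probes of both genes were unequal in size, with 3 LAMB1 probes from -2.37 to -0.33, of which 2 passed, and 4 LAMC1 probes from -1.18 to -0.03, of which 1 passed. In LAMB1 the largest difference came from the brightest probe, and the dimmer probes had mean P114 signals of 8.84 and 7.71.

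ITGB5, a beta chain that pairs with ITGAV to bind vitronectin, showed the same spread among probes. Its brightest probe had 11.38 and 11.66 in P114 and 9.66 and 9.69 in CMT-U27, a difference of -1.84 ± 0.14, or 3.59-fold (limma adjusted p = 0.00121). The other 3 ITGB5 probes, with mean P114 signals of 7.59, 9.03 and 9.33, lay between -0.69 and -0.33 and did not pass. All 4 probes were below 0. ITGAV, its alpha partner, stood at 0.07 (mean signals of 13.68 in P114 and 13.75 in CMT-U27, limma adjusted p = 0.84), and its 3 probes ranged from -0.30 to 0.07.

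**Figure D2:**
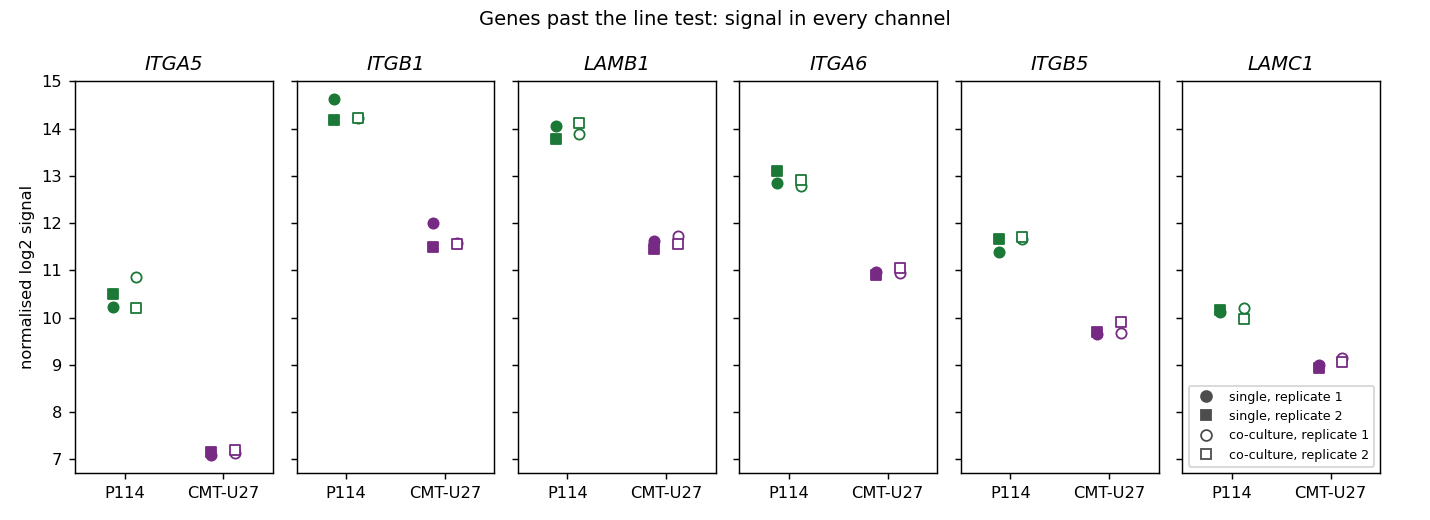
Normalised log2 signal (vertical axis) of the 6 genes that passed the line test, in every channel of the 4 arrays. Filled symbols are single culture and open symbols co-culture, with circles for replicate 1 and squares for replicate 2. In each gene all P114 channels lie above all CMT-U27 channels, by least in LAMC1 and by most in ITGA5.

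The line differences of these 6 genes in the co-culture channels of the same arrays ranged from -3.36 to -0.99, which is no independent measurement. Among collagen-binding alpha chains, the brightest probe with the ITGA1 symbol stood at -0.35. The dimmer one, which holds the GFF codons, passed at -1.32 (8.65 and 8.67 in P114, 7.38 and 7.29 in CMT-U27, limma adjusted p = 0.0495). Its CMT-U27 signals were low, though well above background on both arrays. The brightest probe lies apart from the dimmer one, at chr4:62442981-62443040, and is assigned to another transcript. Whether that probe reads ITGA1 was not tested, so its value may not be that of ITGA1. Gene counts at the brightest probe nonetheless take ITGA1 at that probe, where it did not pass. ITGA2, the platelet and epithelial collagen receptor chain, stood at -0.78 (limma adjusted p = 0.512). LAMA3 and LAMB3 are chains of the laminin that anchors epithelia at hemidesmosomes. They stood at -1.10 and -0.54, and neither passed at the brightest probe (smaller limma adjusted p = 0.112).

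Higher values in CMT-U27 were few. ITGB8, a beta chain that pairs with ITGAV and activates latent TGF-beta, had 7.53 and 7.06 in P114 and 7.96 and 7.98 in CMT-U27, a difference of 0.68 ± 0.18 that did not pass (limma adjusted p = 0.0649), and in P114 it was well above background on 1 array of 2. ITGB6, an epithelial partner of ITGAV with the same role, stood at 0.17. Of the 25 genes, 14 had both P114 arrays above both CMT-U27 arrays in single culture, 2 had the reverse order and 9 overlapped. Over probes this order was found in 31 of 46 and its reverse in 3 of 46, where 33.4% and 37.6% of all tested probes had them.

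Of the 6 leukocyte chains, 2 were tested. ITGAE, the alpha chain of lymphocytes that bind E-cadherin on epithelia, had 9.05 and 8.94 in P114 and 8.60 and 8.53 in CMT-U27, a difference of -0.43 (limma adjusted p = 0.709). It was well above background in every channel. ITGB2, the beta chain of the leukocyte integrins, had 7.70 and 7.16 in P114 and 7.32 and 7.30 in CMT-U27, a difference of -0.13. These signals were low. Its other probe was too dim to be tested, and was well above background on 1 P114 array and 0 CMT-U27 arrays in either culture. Of the 4 probes for ITGAM, the macrophage and neutrophil alpha chain also known as CD11b, 3 were detected (well above background) in P114 on just 1 array of 2, in CMT-U27 on 0 of 2, in either culture. ITGAX, the CD11c chain, was detected in P114 on 1 array of 2 and in CMT-U27 on 0 of 2. ITGA4, ITGA8, ITGAD, ITGAL, LAMA4 and LAMB4 likewise had no probe that could be tested. On P114 replicate 1, 91.8% of all probes were well above background in single culture, against at most 65.7% in any channel of the other arrays. Detection of ITGAM or ITGAX on 1 P114 array is thus no measure of a difference between the lines.

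The line calls depended on how the arrays were brought to a common scale. With each array only centred on its median, all 6 differences stayed below 0, from -3.44 to -1.53, but 0 of 25 genes passed, as did 0 of all 28694 probes. ITGB1 and LAMC1 also lost the call with the scanner software's processed signals (limma adjusted p = 0.0521 and 0.167), and ITGB1 with no filter on dim probes (0.0859). The count of genes past the test was 15 without P114 replicate 1 and 17 without P114 replicate 2, and these included the same 6 genes. Of all tested probes, 47.9% and 61.0% passed in these fits, so the calls grew across the whole array.

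**Figure D3:**
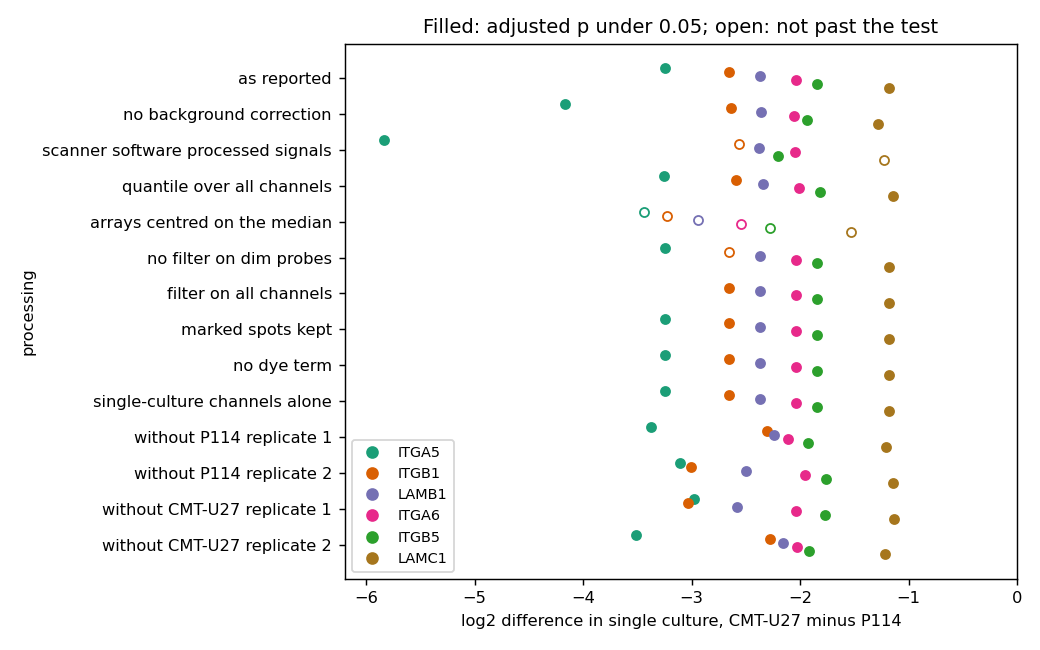
Log2 line difference (CMT-U27 minus P114, horizontal axis) of the 6 genes under each way of processing (vertical axis). Filled circles passed the limma test and open circles did not. ITGA5 has no value under the filter on all channels, and all other circles lie below 0.

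Genes that work with integrins and laminins were counted in the same fit, each at its brightest tested probe. Over all tested probes, 6.97% were lower in CMT-U27 and 8.23% higher. These shares include dimmer probes of a gene, so they are not a like measure. Of 18 tested partners at the cytoplasmic side, 4 were lower in CMT-U27 and 0 higher. Of 12 tested partners of laminin in the basement membrane, 4 were lower and 0 higher. Of 9 other integrin ligands, 4 were lower and 1 higher. FN1, the fibronectin bound by ITGA5 with ITGB1, had 14.50 and 14.53 in P114 and 8.94 and 8.93 in CMT-U27, or 47.8-fold lower (limma adjusted p = 0.00016). NPNT, the nephronectin bound by ITGA8 with ITGB1, was 6.30-fold higher (limma adjusted p = 0.000438). COL4A1 and COL4A2, the collagens of the basement membrane, were 10.8-fold and 5.64-fold lower (limma adjusted p = 0.000905 and 0.0048), and were singled out after their values were seen.

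Cell type markers moved between the lines as well. Of 7 tested epithelial markers 5 were higher in CMT-U27, and the summed signal of the list in single culture was 20903 to 20969 in P114 and 128180 to 142624 in CMT-U27. EPCAM, by which both lines had been sorted, was 6.34-fold higher in CMT-U27 (limma adjusted p = 0.000743), and KRT15, a basal keratin, was 6.36-fold higher (limma adjusted p = 0.000402). CD44, another sort marker and the hyaluronan receptor, stood 2.73-fold lower without passing (limma adjusted p = 0.11), and Sca1 was not analysed here. Of 6 tested fibroblast markers 1 was lower, COL1A2 by 6.94-fold (limma adjusted p = 0.000402). In P114 it made up nearly all of the list's summed signal. That sum in single culture was 21077 to 22247 in P114 and 3695 to 3974 in CMT-U27. The other 5 stood between -0.33 and -0.12 and did not pass, and their summed signal was 895 to 1067 in P114 and 851 to 852 in CMT-U27. DCN and LUM, matrix genes of fibroblasts, stood between 6.85 and 7.41 on all 4 arrays, and were singled out after their values were seen. The part of these markers in the integrin and laminin differences was not tested. In bulk RNA, fewer cells of a type and less RNA per cell cannot be told apart.

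The second comparison asked what co-culture did in each line. No integrin or laminin gene passed in P114 or in CMT-U27, and no gene passed in the difference between the lines (0 of 46 probes in each by limma, where 0% of all tested probes passed). At an unadjusted p under 0.05 the counts were 5 of 46 probes in P114, 1 of 46 in CMT-U27 and 1 of 46 for the difference, where 6.12%, 3.23% and 2.86% of all tested probes did so. The median log2 ratio over the 46 probes was -0.01 in P114 and 0.04 in CMT-U27, against 0.01 and 0.02 over all tested probes.

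In P114, 11 of 46 probes were higher and 13 of 46 lower in co-culture on both arrays, where 25.1% and 18.2% of all tested probes were. In CMT-U27, 22 of 46 were higher and 2 of 46 lower on both arrays, where 37.4% and 13.2% were. The sizes were small, with a median absolute log2 ratio of 0.12 in P114 and 0.05 in CMT-U27 (0.06 and 0.04 over all tested probes).

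At the brightest probe of each gene, the largest P114 ratio with the same sign on both arrays was that of ITGAV, with log2 ratios of 0.19 and 0.48. Its mean was 0.33 ± 0.20 (SD, n = 2 arrays), or 1.26-fold, and it did not pass (limma adjusted p = 0.797). The other ITGAV probes had means of 0.25 and 0.11, each with the arrays on opposite sides of 0. In CMT-U27 the same brightest probe gave 0.03 and -0.03. The difference between the lines was -0.33 ± 0.10 (SE of the fit with a dye effect, limma adjusted p = 1.00).

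ITGB5, which pairs with ITGAV, had ratios of 0.29 and 0.04 in P114, with a mean of 0.17 ± 0.18. Its 4 probes had means from 0.13 to 0.37, and each was above 0 on both P114 arrays. In CMT-U27 the 4 probes had means from 0.01 to 0.15. LAMB2, a beta chain found in the basement membranes of kidney and synapse, had 0.50 and 0.00 in P114, with a mean of 0.25 ± 0.35. In CMT-U27 it had 0.25 and 0.27, with a mean of 0.26 ± 0.02, or 1.20-fold. Its other 2 probes lay between -0.05 and 0.02 in P114 and between -0.04 and 0.00 in CMT-U27, so the ratio was seen at 1 of 3 probes.

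Among the most negative P114 ratios with the same sign on both arrays were those of ITGB6 and ITGA6. ITGB6 had -0.11 and -0.22, and ITGA6 had -0.07 and -0.18. Their means were -0.16 ± 0.08 and -0.12 ± 0.08 (SD, n = 2 arrays), and neither passed (smaller limma adjusted p = 0.803). These were smaller than the gap between the P114 arrays in other members, such as ITGA2, with 0.47 and -0.91, and ITGA5, with 0.63 and -0.31.

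In CMT-U27 the largest ratio with the same sign on both arrays was that of ITGB3, the beta chain of the platelet and endothelial vitronectin receptors. It had 0.37 and 0.23, with a mean of 0.30 ± 0.10, or 1.23-fold, and did not pass (limma adjusted p = 1.00). Its dimmer probe, which reads the NPxY codons, had a mean of 0.02. LAMB3 had 0.15 and 0.16, with a mean of 0.16 ± 0.01, and its other probes had means of 0.05 and 0.00. The members below 0 on both CMT-U27 arrays were ITGB2 (-0.03 and -0.05) and LAMA2, a muscle and nerve laminin chain (-0.04 and -0.01). Replicate numbers pair nothing across lines. In either line the brightest ITGB1 probe was below 0 on replicate 1 and above 0 on replicate 2. It had -0.41 and 0.04 in P114 and -0.43 and 0.07 in CMT-U27. Its other probe had -0.18 and -0.11 in P114, below 0 on both arrays, and -0.28 and 0.15 in CMT-U27. LAMA3 had a mean of 0.08 ± 0.41 in P114 and 0.01 ± 0.03 in CMT-U27, and ITGB2 at -0.02 ± 0.04 in P114.

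**Figure D4:**
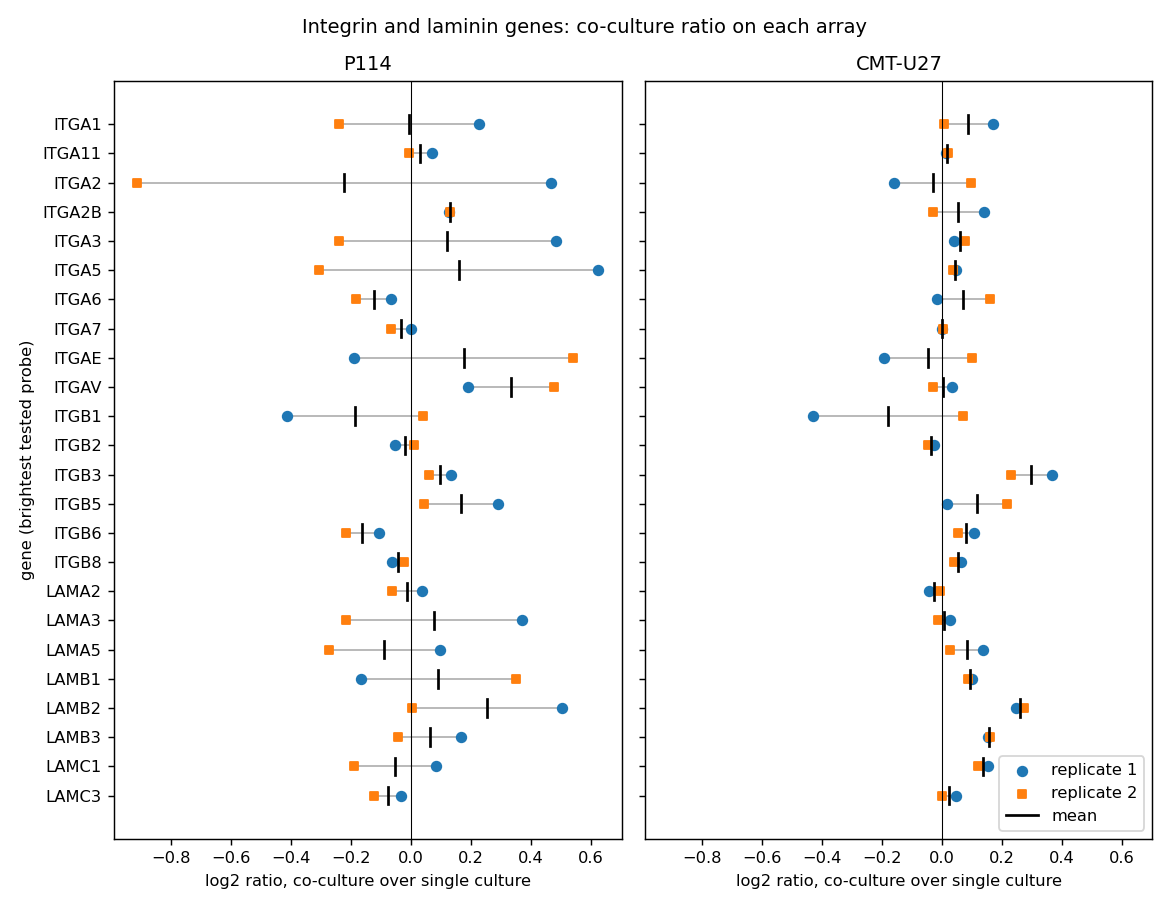
Log2 ratio of co-culture over single culture (horizontal axis) for the brightest probe of each gene reported (vertical axis), with P114 on the left and CMT-U27 on the right. Circles are replicate 1, squares replicate 2, and black ticks their mean. The P114 arrays lie far apart for many genes, most for ITGA2 (0.47 and -0.91), and the largest CMT-U27 mean is that of ITGB3 (0.30).

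The co-culture result depended on loess, which sets each spot against others of like brightness. When arrays were centred on their median instead, all tested probes had a median of 0.68 in CMT-U27 and 0.16 in P114. That centring used every spot but the controls, with probes too dim to test, so the tested probes need not centre on 0. In CMT-U27, 17 of 25 genes then passed, all of them higher, where 60.4% of all tested probes passed, and 15 of 25 genes lay above the median of all probes. The difference between the lines then passed for 13 of 25 genes, where 43.4% of all tested probes passed. In P114, 0 of 25 passed.

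Among partner genes, 0 passed in either line or in the difference. PARVB, a parvin that links integrins to actin, had 0.47 and 0.32 in P114, with a mean of 0.40 ± 0.11, and LIMS1, which binds it through ILK, had 0.02 and 0.44. KRT5, a basal keratin, had -0.26 and -0.80, and HSPG2, the basement membrane proteoglycan perlecan, had -1.26 and -0.10. In CMT-U27, FN1 had 0.63 and 0.45, with a mean of 0.54 ± 0.13, and ICAM1, the ligand of ITGAL with ITGB2, had 0.40 and 0.60. KRT15 had 0.71 and 0.91, and COL1A2 had 0.29 and 0.32, against 0.02 and -0.25 and against -0.02 and 0.03 in P114. EPCAM had a mean of -0.06 ± 0.09 in P114 and -0.11 ± 0.00 in CMT-U27, and CD44 at 0.00 ± 0.49 and 0.05 ± 0.00.

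Macrophage markers were near the lower end of the scale in both cultures. Of 17 on the array, 5 were tested and 2 (PTPRC and CD53) were above background in no channel. The summed signal of the list in P114 was 2795 to 3286 in single culture and 2685 to 3320 in co-culture, and in CMT-U27 it was 2882 to 3072 and 2992 to 3140. The mean ratios of the 5 tested markers lay between -0.22 and 0.04 in P114 and between -0.01 and 0.13 in CMT-U27. Their part in the co-culture ratios was not tested.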

How the data were processed

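Members and gene lists were chosen with earlier results of these data known. Per the file headers, each deposited scanner file gives a linear intensity for every spot and dye, written by Agilent Feature Extraction 10.10.1.1 (10.7.3.1 per the submitters' processing notes). Per the file headers, the deposited log10 ratio is Cy5 over Cy3, and the authors' series table equals it (largest gap 0). It was an alternative only. Flags of 0 or 1 in the deposited files served as filters. Probe positions are CanFam3.1 per the file headers. The P114 and CMT-U27 files carry different versions of the probe annotation, and both gave the same 63 member probes. All 33 symbols were found in the RefSeq gene table.

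Mean intensities were corrected with normexp (offset 50) and loess, with controls at weight 0. Marked spots were left out. Probes well above background on both arrays of a line and culture were tested, 28694 in all. Log2 ratios were fitted with limma 3.58.1 (R 4.3.3), with line coefficients and a dye term, leaving 1 residual degree of freedom and 2.76 prior ones. Lines were compared by a separate-channel fit after Aquantile, with a correlation of 0.936 between the channels of a spot and 3 residual degrees of freedom. Both fits were tested on simulated data, where the estimated channel correlation came out above the true value and the line fit made fewer calls than there were changed probes. The number of arrays limited precision. A gene is shown by its brightest tested probe. Values were given in full for members past the test, otherwise for the 3 highest and 3 lowest ratios of like sign, for 10 set members, and for up to 4 other genes with the smallest p. Alternatives covered background correction, signal column, normalisation, filters, dye term and each array left out. Figures used matplotlib 3.10.9. A member that enters the counts and medians is not reported here by name or drawn.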

Additional observations from a re-analysis of the deposited data

Results flagged for a closer look

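The only ITGB6 probe had co-culture ratios of -0.11 and -0.22 in P114 and of 0.11 and 0.05 in CMT-U27. Every array of a line thus lay on the same side of 0. Its single-culture signals were low, with 7.30 and 7.69 in P114 and 7.71 and 7.62 in CMT-U27, though well above background. Such small ratios at this level are no firm sign of a change. The difference of 0.24 between the lines did not pass the limma test (adjusted p = 1.00), and 0 of 28694 probes passed for that difference.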

How the results depend on the processing

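For the line difference, 6 of 25 genes passed. The count was 0 with arrays centred on their median. It was 11 with no dye term and 12 with the single-culture channels alone (32.7% and 36.0% of all tested probes). With each array left out in turn, the differences of the 6 genes stayed below 0. With an array left out, the channel correlation was kept at its value from all 4 arrays, and the lone array of a line was assumed to vary like the others. With no background correction, quantile normalisation over all channels or marked spots kept, the same 6 genes passed (13.9%, 14.9% and 15.1% of the probes tested). With processed signals, no filter or a filter on all channels the count was 5 (of these, 4, 5 and 5 were among the 6). Of the probes tested, 8.27%, 8.29% and 17.2% passed in these fits. With any tested probe of a gene the count was 7. For co-culture the count was 0 in both lines and for their difference under every alternative run, except that median centring in place of loess gave 17 in CMT-U27 and 13 for the difference. No paired analysis was possible because the replicate numbers pair nothing across lines and each ratio already compares cultures within an array. Low signal over background left ITGAM, ITGAX, ITGAL, ITGAD, ITGA4, ITGA8, LAMA4 and LAMB4 with no tested probe.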

Other observations

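Another 5 probes were described in the files as integrin or laminin chains but carried no matching symbol, so they were not counted among the members. The probes described as integrin beta 7, integrin alpha 9, integrin alpha-2 and a laminin alpha 3B chain stood at -0.41, -0.08, -0.29 and -0.88 for CMT-U27 minus P114 in single culture, and none passed the limma test (smallest adjusted p = 0.0791). The probe described as laminin alpha 1 was not well above background on any array of either line in single culture.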
